A study of Mus musculus with 24 samples.

Results

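A set of 10 genes that mark neurons of the thalamus were followed across 24 sequencing libraries of mouse brain: Tcf7l2, Lef1, Prkcd, Rora, Gbx2, Ramp3, Rgs16, Synpo2, Plekhg1 and Ptpn3. They were taken by symbol from a table of 40836 genes, and 10 of 10 were among the 20437 genes kept for testing. The libraries hold polyadenylated RNA of tissue labelled brain. The names of the libraries combine E3 or E4 (called the E code here) with 05, 10 or 15 (the time code) and a replicate number, so that there are 6 groups of 4, and a library is written as E3-05 2. The series title concerns ApoE4, microglial lipid handling, Asxl1 and the liver X receptor, so E4 against E3 was the comparison of interest. Neither code is spelled out, and strain, age, treatment and dissected region are not given in the sources used here, so a group is known only by its codes and by the months in the titles. The titles name January or February in time code 05, March or April in 10 and May or June in 15, so time code and titled month cannot be told apart. The titles call the libraries of each month biological replicates (biol repl), but do not state that each came from a separate animal. The p-values below measure the spread between these libraries, part of which may be technical.

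The thalamus relays sensory and motor signals to the cortex through glutamatergic projection neurons. Tcf7l2 and Lef1 encode TCF/LEF factors, which bind DNA and pair with beta-catenin in Wnt signalling, and Tcf7l2 is a standard marker of thalamic and habenular neurons. Gbx2 encodes a homeodomain factor of the developing thalamus, and Rora a nuclear receptor found both in sensory thalamic nuclei and in Purkinje cells of the cerebellum. The other members work downstream at the membrane and in the cell: Prkcd is a protein kinase C, Rgs16 switches off G proteins, Ramp3 partners calcitonin-family receptors, Plekhg1 activates small GTPases, Ptpn3 is a tyrosine phosphatase and Synpo2 an actin-binding protein. In bulk tissue, fewer cells of a type and less RNA per cell cannot be told apart.

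Since 2 of the members encode TCF/LEF factors, the upstream sequence of all 10 was searched for the core of their binding motif, CTTTGA, on both strands. The RefSeq promoter table (GRCm38.p6) matched 10 of 10 members with 15 transcription starts, and the search used the 250 bases before each start. The motif was present in 13.8% of all 32851 windows of this length and in 2 of the 15 windows of the members, 1 of Lef1 and 1 of Prkcd. The core AGGTCA, bound by ROR and other nuclear receptors, was in 14.0% of all windows and in 0 of the 15. These matches are letters and not measured binding, and the counts below carry no information on binding. The shares over all windows are also not matched for base content. The median GC was 65.0% in the first window of each member and 52.4% in all windows. The windows of the first and second listed Lef1 starts overlap. The sequences are shown for the gene used as the reference below (Tcf7l2), for the member with the highest rank correlation with it (Synpo2), and for the windows with a match, in lower case, 5′ to 3′ on the gene's strand, with capitals marking the motif. The window of the Tcf7l2 start listed first is chr19:55741560-55741809 on the plus strand, where GENCODE vM21 has no gene. The Synpo2 window is chr3:123236150-123236399 on the minus strand, also outside annotated genes. The Lef1 window is chr3:131156044-131156293 on the plus strand, before the fourth listed start, inside a Lef1 intron. It holds the motif in 2 places, both on the opposite strand. For Prkcd, 26 bases around the match are shown, chr14:30626332-30626357 on the minus strand, in a window that overlaps an annotated Prkcd exon.
Tcf7l2: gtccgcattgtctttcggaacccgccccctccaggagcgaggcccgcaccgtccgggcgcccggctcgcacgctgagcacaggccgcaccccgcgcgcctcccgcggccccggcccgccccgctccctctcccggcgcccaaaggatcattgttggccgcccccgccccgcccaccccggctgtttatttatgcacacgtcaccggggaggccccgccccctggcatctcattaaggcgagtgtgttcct
Synpo2: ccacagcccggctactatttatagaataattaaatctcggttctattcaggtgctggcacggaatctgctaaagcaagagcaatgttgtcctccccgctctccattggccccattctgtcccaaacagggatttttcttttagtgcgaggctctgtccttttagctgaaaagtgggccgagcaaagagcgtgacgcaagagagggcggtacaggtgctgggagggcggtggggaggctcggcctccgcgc
Lef1: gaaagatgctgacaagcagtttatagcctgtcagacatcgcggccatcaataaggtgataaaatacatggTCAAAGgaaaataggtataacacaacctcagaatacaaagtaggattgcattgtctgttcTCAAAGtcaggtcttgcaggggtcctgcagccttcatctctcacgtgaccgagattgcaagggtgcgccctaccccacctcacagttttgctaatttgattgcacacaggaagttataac
Prkcd: gacttgcaacTCAAAGaggctgagac

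The smallest library held 37.4 M counts and the largest 99.5 M (M, mega). The numbers that head the table's columns matter here, because the 8 libraries in columns whose number is a multiple of 3 stand apart: the mean log2 CPM of 12 genes of the cerebellum and hindbrain was 5.79 to 7.06 there, against -0.88 to 1.24 elsewhere. CPM is the count scaled to library size with TMM factors. Gabra6, which encodes a GABA receptor subunit of cerebellar granule cells, lay at 85.5 to 533 CPM in the 8 libraries and at 0 to 4.63 CPM in the 16. The 8 comprise E3-05 2, E4-05 3, E3-10 1, E3-10 4, E4-10 2, E3-15 3, E4-15 1 and E4-15 4. Results below are for the 16, in which E3-10 and E4-15 keep 2 libraries and the other groups 3. The 8 are described after them.

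Across the 16 libraries the thalamic genes spanned wide ranges and moved together. Tcf7l2 lay at 5.21 CPM in the lowest library (E3-15 4), at 43.3 CPM in the median and at 229 CPM in the highest (E4-05 4), a 43.9-fold range. Its partner of the same factor family, Lef1, ran from 8.16 CPM (E4-10 4) over a median of 18.8 to 53.2 CPM. Gbx2 had the lowest counts of the set and ran from 0.411 CPM, or 15 counts, in E3-15 4 over a median of 4.59 to 11.1 CPM. All 3 were highest in E4-05 4. Rora ran from 76.7 CPM (E4-05 1) over a median of 117 to 340 CPM, a narrower 4.44-fold range.

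Among the signalling genes, Prkcd had the widest span, from 12.1 CPM (E4-10 3) over a median of 58.3 to 400 CPM, or 32.9-fold. Rgs16 ran from 8.64 CPM in E3-15 4 over 22.5 to 92.2 CPM. Ramp3 ran from 8.97 CPM in E4-10 4 over 17.1 to 61.4 CPM. These genes again peaked in E4-05 4. Plekhg1 ran from 28.7 CPM in E3-15 4 over 52.3 to 198 CPM, and the actin-binding gene Synpo2 from 9.16 CPM in E3-15 4 over 25.4 to 102 CPM. Ptpn3 had the smallest span, from 46.2 CPM in E4-10 4 over 87.7 to 168 CPM, or 3.64-fold.

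**Figure D1:**
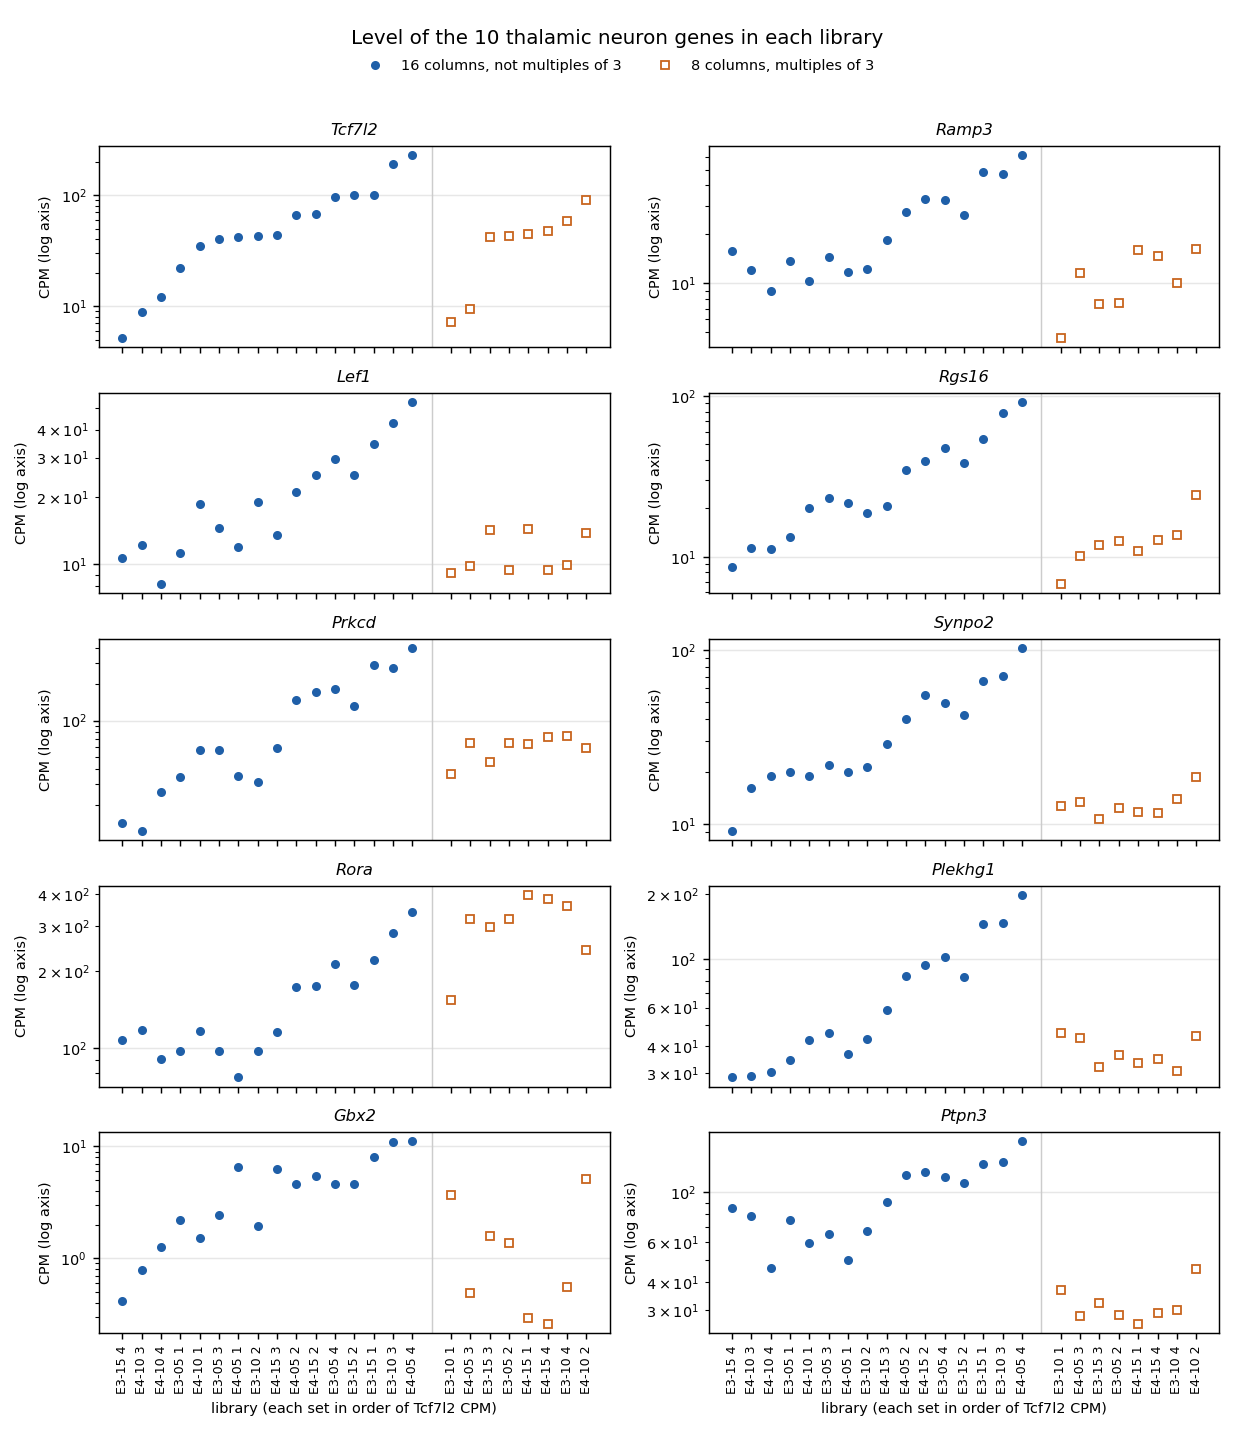
CPM (log axis) of each of the 10 genes in each library, 1 panel per gene, with each set of libraries in order of Tcf7l2; filled circles are the 16 columns that are not multiples of 3 and open squares the other 8. All 10 genes peak in E4-05 4 within the 16, and Ptpn3 in the 8 lies below its whole range in the 16.

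The high libraries were nearly the same ones from gene to gene. E4-05 4 was the highest of the 16 for 10 of 10 members. The lowest library was E3-15 4 for 5 members, E4-10 4 for 3, E4-10 3 for Prkcd and E4-05 1 for Rora. The 7 libraries highest in Tcf7l2 were E4-05 4, E3-10 3, E3-15 1, E3-15 2, E3-05 4, E4-15 2 and E4-05 2, and for 9 members, Tcf7l2 included, these were the 7 highest. For Gbx2, 5 of them were, and E4-05 1 (6.58 CPM) and E4-15 3 (6.29 CPM) ranked above E3-05 4 (4.60 CPM) and E4-05 2 (4.58 CPM). The number 7 was chosen after the values were seen, and the 7 libraries come from each group except E4-10.

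The members spread more than most genes across these libraries. Their median SD of log2 CPM was 0.93 over the 16, against 0.25 over all genes. Prkcd (SD 1.58) had a larger SD than 99.6% of genes, Tcf7l2 (1.51) than 99.4% and Gbx2 (1.35) than 99.1%. At the other end, Ptpn3 (0.55) exceeded 75.5% of genes and Rora (0.64) 80.1%. The members were chosen with earlier results of these data known, so these ranks describe them and are no independent support.

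Covariation was measured against Tcf7l2, by Pearson's r and Spearman's rho of log2 CPM over the 16 libraries, each with a two-sided permutation test of 100000 resamples, in 9 relations. Rgs16 followed Tcf7l2 most closely, with r = 0.97 and rho = 0.95. Prkcd (r = 0.94), Synpo2 (0.93), Gbx2 (0.92), Plekhg1 (0.91) and Lef1 (0.89) came next. For these 6 genes the permutation p of r was 1e-05, the smallest these resamples can give. The permutation p of rho was 3e-05 for Gbx2 (rho = 0.88) and 1e-05 for the other 5. Ramp3 had r = 0.79 (permutation p = 0.00016) and rho = 0.84, Rora r = 0.77 (permutation p = 0.00051) and rho = 0.77, and Ptpn3 r = 0.68 (permutation p = 0.00405) and rho = 0.79. The members and tests were chosen with earlier results of these data known. The p-values of the 9 relations therefore describe the set and are no independent support. Without the 2 libraries farthest from the median of Tcf7l2 (E3-15 4 and E4-05 4), r over the other 14 lay between 0.73 (Ptpn3) and 0.96 (Rgs16). With the group means removed first, or with the means of each set of 3 adjacent columns removed, 9 of 9 relations kept an r above 0 and a permutation p under 0.05. These resamples shuffled all 16 centred values freely, although centring ties the values within a group or set. The p-values after centring are therefore too small, and no conclusion is drawn from them. A set of 3 adjacent columns holds 2 of the 16 libraries, too few for a value within each set.

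**Figure D2:**
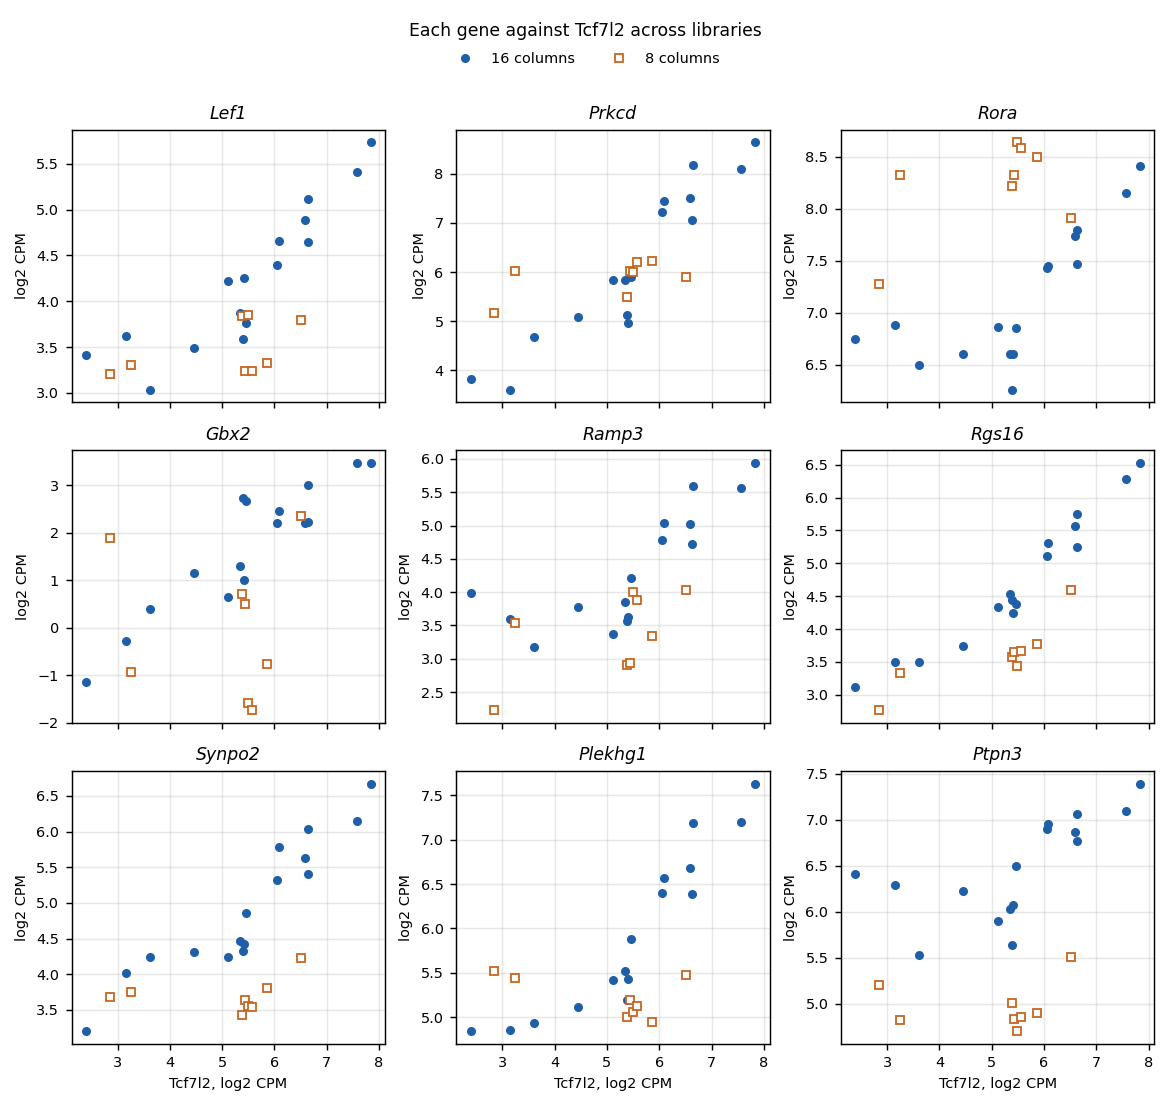
log2 CPM of 9 genes (vertical) against log2 CPM of Tcf7l2 (horizontal), 1 point per library; filled circles are the 16 columns that are not multiples of 3, open squares the other 8. In the 16, Rgs16 lies closest to a line (r = 0.97) and Ptpn3 farthest from one (r = 0.68).

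To set this against all genes, edgeR's quasi-likelihood test was fitted for the slope of every gene on the log2 CPM of Tcf7l2, where a slope of 1 means that the gene doubles as Tcf7l2 doubles. Prkcd nearly kept pace, with a slope of 0.99 ± 0.09 (SE, 16 libraries; edgeR adjusted p = 1.81e-06). Gbx2 followed at 0.81 ± 0.10 and Rgs16 at 0.65 ± 0.04, the latter with the third smallest p of 20436 genes (edgeR adjusted p = 2.13e-08). Synpo2 rose with a slope of 0.58, Plekhg1 with 0.56, Lef1 with 0.45, Ramp3 with 0.45 and Rora with 0.32. Ptpn3 was the shallowest, at 0.23 ± 0.06 (edgeR adjusted p = 0.0116). All 9 of 9 rose with Tcf7l2 at an adjusted p under 0.05, where 7.66% of all genes tested rose and 7.84% fell. The median slope was 0.56 for the 9 and 0.00 for all genes. The members were chosen with earlier results of these data known, so the count describes them and is no independent support. Without the 2 libraries highest in Tcf7l2 (E4-05 4 and E3-10 3), 7 of 9 passed and the genes called fell from 3168 to 541, with Rora at 0.24 (edgeR adjusted p = 0.0733) and Ptpn3 at 0.19 (edgeR adjusted p = 0.19). Ptpn3 also missed the threshold without E4-05 4 alone (slope 0.20, edgeR adjusted p = 0.0604), where 1561 genes were called, and with 1 coefficient per group (0.23, edgeR adjusted p = 0.113) or a term per set of 3 columns (0.22, edgeR adjusted p = 0.0725).

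The members also covaried among themselves. Of the 45 pairs, 45 had r above 0 over the 16 libraries and 36 had r above 0.8, with a median of 0.90. Prkcd and Plekhg1 formed the closest pair (0.97), and Gbx2 and Ptpn3 the loosest (0.59). Gbx2 was in 4 of the 5 loosest pairs, with r of 0.64 to Rora, 0.73 to Lef1 and 0.74 to Ramp3, and the other was that of Tcf7l2 with Ptpn3 (0.68). Ptpn3 was closest to Ramp3 (0.96). These values share libraries and scaling, so they are given as a description.

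**Figure D3:**
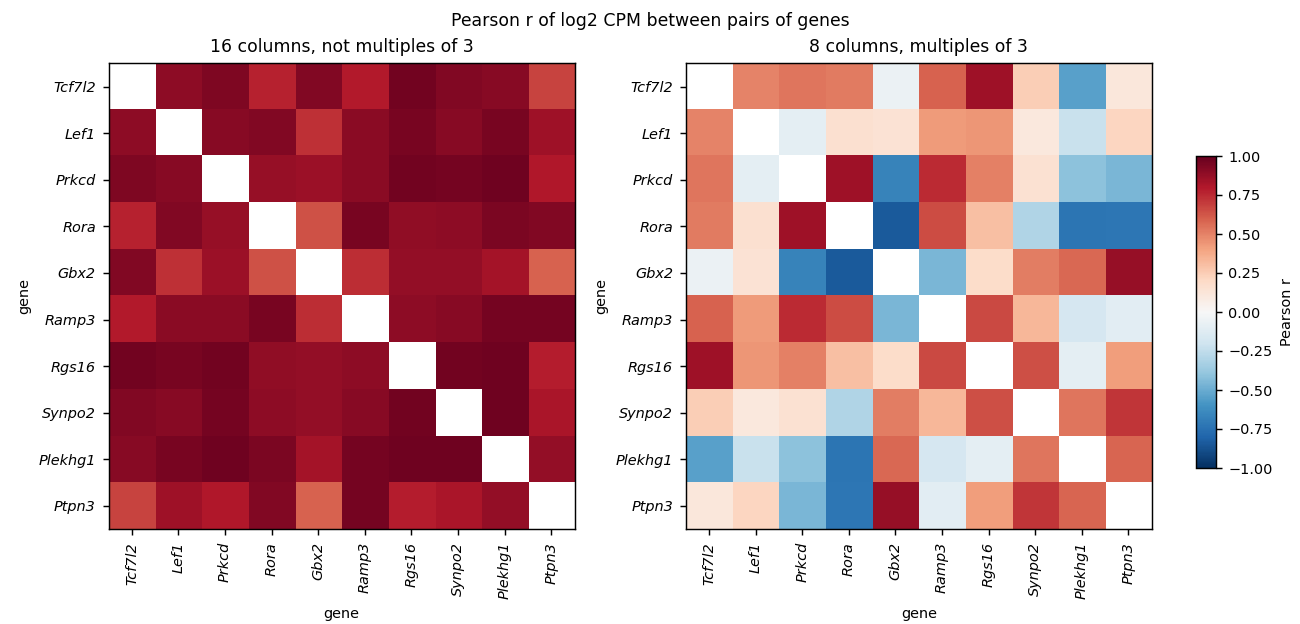
Pearson r of log2 CPM for each pair of the 10 genes, over the 16 columns that are not multiples of 3 (left) and over the other 8 (right); red is above 0, blue below, and the diagonal is blank. On the left every pair is above 0, from 0.59 to 0.97, and on the right the pairs run from -0.84 to 0.87.

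Outside the members, the genes most like their mean over the 16 libraries were, in order of r, Wnt9b (0.97, 0.248 to 12.9 CPM), Tafa4, Vav3, Mctp2, F2r, Rab37, Ntng1, Patj, Plekhd1 and Tnnt1 (0.96, 1.82 to 42.9 CPM). Wnt9b encodes a Wnt ligand, Ntng1 (netrin G1) an adhesion molecule of thalamocortical axons, F2r the thrombin receptor and Tnnt1 a troponin. They were ranked by this likeness, which carries no test.

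A list of 12 further thalamic genes was read from the same fit. Of these, 11 rose with Tcf7l2, 0 fell, and their median slope was 0.51. The list was chosen with earlier results of these data known, so the count is a description and no independent check of the label. Midbrain and habenula lists had steeper medians (0.93 and 0.72), and Calb2 is on both the thalamic and the habenula list. Slc17a6, the vesicular glutamate transporter VGLUT2 of thalamic projection neurons, ran from 29.0 to 356 CPM in the 16 libraries with a slope of 0.64 ± 0.04 (edgeR adjusted p = 6.6e-08). Shox2, a transcription factor of thalamic neurons, ran from 0.603 to 75.5 CPM (slope 1.12). Ntng1 had a slope of 0.56 and Amotl1 one of 0.44. Foxp2, also a gene of striatal and cortical neurons, was the exception at 0.09 ± 0.06 (edgeR adjusted p = 0.343).

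Most genes of the midbrain and habenula lists rose beside the members. Other neighbouring regions did not share this: in the hypothalamus list 0 of 11 genes rose (median slope -0.12). The midbrain list had 10 of 10 genes rising, with a median slope of 0.93. Among them were Tal1 (slope 0.47, 2.07 to 16.5 CPM) and Gata3 (1.24, 0.0274 to 14.3 CPM), factors of inhibitory midbrain neurons, and the dopamine neuron gene Th (0.47, 3.59 to 34.6 CPM). Summed over the list, midbrain genes ran from 13.6 CPM (E3-15 4) to 153 CPM (E3-10 3), with E4-05 4 next to highest at 137 CPM. The summed members ran from 253 CPM (E4-10 4) to 1655 CPM (E4-05 4). In the habenula list 6 of 9 rose and 0 fell, with Irx2 at a slope of 1.26 and the receptor gene Gpr151 at 0.95, and its sum ran from 90.4 to 304 CPM. The hindbrain gene Hoxb5 was near 0 in these 16 libraries (0 to 0.176 CPM), although 4 of the 12 on the cerebellum and hindbrain list rose, among them En2 (0.48) and Barhl1 (1.02), and Itpr1 fell (-0.23). The part of these regions in the members' range was not tested.

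In the reticular thalamus list, which covers the inhibitory shell around the relay nuclei, Spp1 (0.32) and Lhx1 (0.74) rose and Sst (-0.18) fell, out of 7. In the cortex list 5 of 11 fell and 0 rose, led by Lamp5 (-0.32 ± 0.07, edgeR adjusted p = 0.00527), Tbr1 (-0.34) and Slc17a7 (-0.25), the cortical counterpart of Slc17a6. In the striatum list 2 of 11 fell, among them the phosphodiesterase gene Pde10a (-0.32), and the median slope was -0.31. Of 10 hippocampal genes, Prox1 (0.33) and C1ql2 (0.57) rose. Of 11 hypothalamic genes 0 passed, with Oxt at -0.50 ± 0.56 nearest.

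Glial and vascular lists had smaller slopes. Of 8 astrocyte genes 6 rose, with Slc6a11, a GABA transporter, at 0.32 and Agt (angiotensinogen), rich in astrocytes of the diencephalon and brain stem, at 0.46 (13.7 to 128 CPM), while the glutamate transporter gene Slc1a3 fell (-0.11). Of 8 microglia genes 3 fell, P2ry12 (-0.13), Cx3cr1 (-0.10) and Csf1r (-0.07). Ermn (0.16) and Aspa (0.14) rose out of 12 mature oligodendrocyte genes, Bcas1 (0.14) out of 7 genes of new oligodendrocytes, and Otx2 (0.35), also on the midbrain list, out of 8 choroid plexus genes. Of the 10 endothelial genes (Slc2a1 nearest at 0.05, edgeR adjusted p = 0.193) and 7 smooth muscle genes (Lmod1 nearest at 0.11, edgeR adjusted p = 0.317) 0 passed.

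The Wnt list was included because Tcf7l2 and Lef1 act in that pathway. Of its 18 genes 5 rose, 1 fell and 12 did not pass. Wnt3, a ligand, had the steepest slope of those that passed (0.53 ± 0.06, 2.44 to 24.7 CPM), followed by the receptor gene Fzd1 (0.24) and Lgr5 (0.22). Rnf43 (0.10) and Ctnnb1 (0.05), which encodes beta-catenin, rose by less, and the co-repressor gene Tle4 fell (-0.10). Axin2, the usual readout of Wnt activity, had a slope of 0.03 ± 0.02 (edgeR adjusted p = 0.433) and stayed between 29.4 and 44.6 CPM while Tcf7l2 spanned 43.9-fold.

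**Figure D4:**
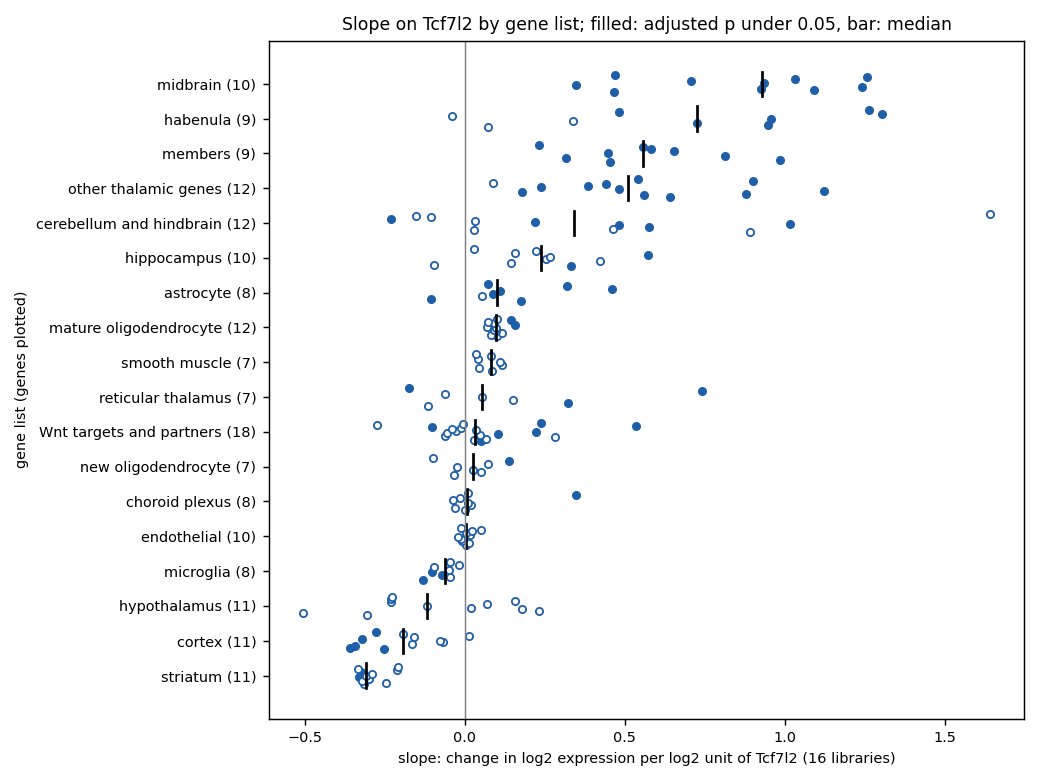
Slope of each gene on Tcf7l2 over the 16 libraries (change in log2 expression per log2 unit of Tcf7l2, horizontal) by gene list (vertical, with the number plotted); filled points passed at an edgeR adjusted p under 0.05 and black bars are medians. The midbrain, habenula, member and other thalamic lists lie highest (medians 0.93, 0.72, 0.56 and 0.51), and the striatum list lowest (-0.31).

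In the 8 libraries whose column number is a multiple of 3, pairs of members had a median r of 0.25, against 0.90 in the 16. This difference was not tested, and each member also spanned a smaller fold range in the 8 than in the 16. Tcf7l2 lay at 7.16 CPM in E3-10 1, at 44.0 CPM in the median and at 91.1 CPM in E4-10 2, so its median was near the 43.3 CPM of the 16. Rora was high there, from 155 to 398 CPM with a median of 319 against 117 in the 16, beside the cerebellar genes given above; its source was not tested. Gbx2 ran from 0.259 CPM, or 13 counts, to 5.11 CPM, with a median of 0.962 against 4.59. The remaining factor gene, Lef1, stayed between 9.19 and 14.4 CPM.

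The other members kept to narrow ranges in the 8. Prkcd lay between 35.8 and 74.3 CPM, Plekhg1 between 30.7 and 45.8 CPM and Synpo2 between 10.8 and 18.7 CPM, each inside its range in the 16. Rgs16 (6.74 to 24.1 CPM) and Ramp3 (4.63 to 16.3 CPM) reached below it. Ptpn3 ran from 26.0 to 45.4 CPM, wholly below its 46.2 to 168 CPM in the 16. It was the 1 member of 10 whose ranges did not overlap, and 0 members lay wholly above, where 7.72% of all genes lay wholly below and 5.97% wholly above. With upper-quartile factors in place of TMM, the ranges of Ptpn3 overlapped too. E4-10 2 was the highest of the 8 for 6 members and E3-10 1 the lowest for 6.

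Covariation with Tcf7l2 in the 8 was closest for Rgs16, with r = 0.85 (exact permutation p = 0.00159) and rho = 0.93. The other 8 genes had exact permutation p of r from 0.129 (Ramp3, r = 0.59) to 0.878 (Gbx2, r = -0.06), and Plekhg1 had r = -0.54. Among the 45 pairs, 30 had r above 0 and 15 below, from -0.84 (Rora with Gbx2) to 0.87 (Gbx2 with Ptpn3), with a median of 0.25. The difference in covariation between the 2 sets of columns was not tested. The median SD of the members in the 8 was 0.41, against 0.26 for all genes.

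Between E4 and E3 no member passed the test at any time code. At time code 05, 10 of 10 members had a log2 fold change above 0, with a median of 0.81 against 0.01 for all genes. The members covary, so such counts of members, here and in the comparisons below, are not separate results. None passed, as for all genes (0% called in edgeR, 474 of 20437 with an unadjusted p under 0.05, 0 members among them). Tcf7l2 lay at 21.9, 40.5 and 96.0 CPM in E3-05 and at 42.0, 66.3 and 229 CPM in E4-05. The groups overlap, and the log2 fold change was 1.09 ± 0.93 (SE, n = 3 and 3; edgeR adjusted p = 0.996). Without E4-05 4, the library highest in 10 of 10 members, the median of the members was -0.02.

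Time code 10 had the widest gap, with E4 below E3. Tcf7l2 lay at 42.5 and 190 CPM in E3-10 and at 8.85, 12.2 and 34.6 CPM in E4-10. The groups do not overlap, and the log2 fold change was -2.64 ± 1.04 (SE, n = 2 and 3; edgeR unadjusted p = 0.0242, adjusted p = 0.955). Gbx2 lay at 1.96 and 11.0 CPM against 0.786, 1.27 and 1.53 CPM, with a log2 fold change of -2.43 ± 0.85 and the smallest unadjusted p of the members (0.0126). Prkcd overlapped between the groups, at 31.1 and 273 CPM against 12.1, 25.6 and 57.0 CPM (-2.27 ± 1.20). Rgs16 overlapped too, at 18.8 and 78.2 CPM against 11.2, 11.3 and 20.2 CPM (-1.76 ± 0.78). The smallest change was that of Ptpn3, -0.73 ± 0.43. All 10 members were below 0, with a median of -1.49 against 0.00 for all genes, and 4 had an unadjusted p under 0.05 (Tcf7l2, Gbx2, Ramp3 and Rgs16). None passed after adjustment, where 0% of all genes passed in edgeR, 803 had an unadjusted p under 0.05 and DESeq2 called 15 genes, none of them a member. All libraries of E4-10 lay below all of E3-10 for 6 members, and for 10.7% of all genes tested. Some of these gaps were narrow. Plekhg1 lay at 42.955 CPM in E3-10 2 and 42.808 in E4-10 1, and Ramp3 at 12.271 in E3-10 2 and 12.095 in E4-10 3. The members covary, so the 6 are not separate results.

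The gap at time code 10 was much smaller without 1 library, E3-10 3. The median of the members was then -0.29, Prkcd stood at 0.02 and Rora at 0.16, and E3-10 is left with the single library E3-10 2, assumed to vary like the other groups. With all 24 libraries, which adds E3-10 1, E3-10 4 and E4-10 2, the median was -0.76, and -0.58 with a term for the columns that are multiples of 3. Other lists differed at the same time code, in fits that also called 0 genes. The 12 other thalamic genes were all below 0 (median -1.13), as were 10 of 10 midbrain genes and 8 of 9 habenula genes (-1.94), while 11 of 11 striatal genes (1.25) and 10 of 11 hypothalamic genes (3.44) were above 0. Of the hippocampal genes 9 of 10 were below 0 (-0.97), while 6 of 11 cortical genes were above 0 (0.06). Lists of other tissues and cell types moved as well. Below 0 were 7 of 7 smooth muscle (-1.215), 8 of 8 choroid plexus (-0.59), 12 of 12 mature oligodendrocyte (-0.16) and 9 of 10 endothelial genes (-0.16). Of the microglia genes 6 of 8 were above 0 (0.19). The part of brain region or cell type in the members' values was not tested.

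**Figure D5:**
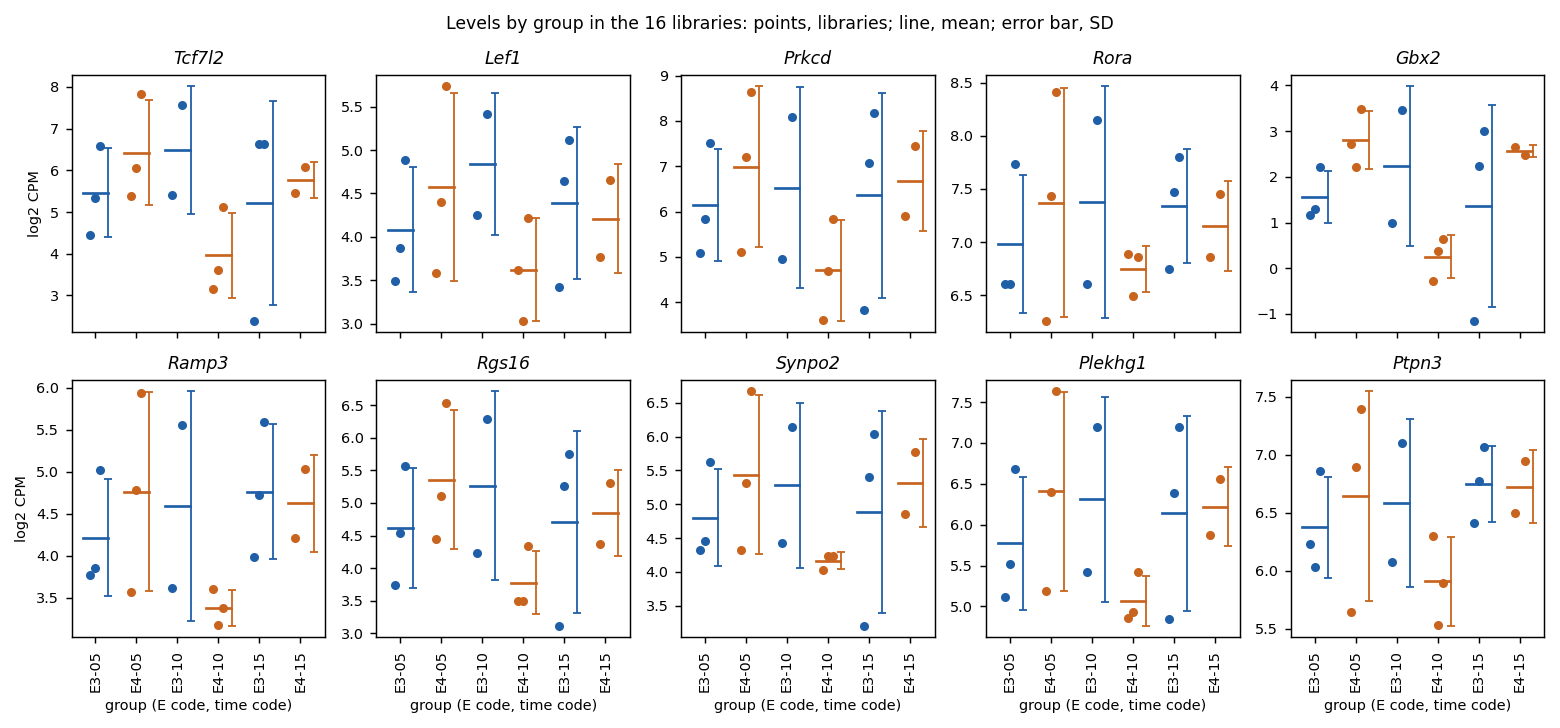
log2 CPM of the 10 genes by group in the 16 libraries (blue E3, orange E4); points are libraries, lines means and error bars SD, with n = 2 in E3-10 and E4-15 and n = 3 elsewhere. E4-10 has the lowest mean for Tcf7l2 (3.96), and the spread within E3-15 (SD 2.45) is wider than most gaps between groups.

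At time code 15 E4 and E3 lay close together on average, and the spread within groups differed by member. In E3-15 the SD of log2 CPM ran from 0.33 (Ptpn3) to 2.45 (Tcf7l2). In E4-15, with 2 libraries, it ran from 0.14 (Gbx2) to 1.09 (Prkcd). Tcf7l2 lay at 5.21, 99.3 and 99.5 CPM in E3-15 and at 44.1 and 67.8 CPM in E4-15, so that the E4 values fall inside the E3 range. Its log2 fold change was -0.28 ± 1.04 (SE, n = 3 and 2; edgeR adjusted p = 1). The members' median was -0.19, from -0.32 (Prkcd) to 0.43 (Gbx2), with 8 of 10 below 0. The sign of this median turned with limma-voom (0.09), without E3-15 1 (0.32) and without E4-15 3 (0.15). Averaged over time codes it was -0.29, against -0.005 for all genes, with 10 of 10 members below 0. Without E3-10 3 the members' median was 0.10. In both comparisons 0% of genes passed in edgeR (261 and 321 with an unadjusted p under 0.05), and 0 members did.

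Time codes did not separate the members either. From 05 to 10 the members' median was -0.50, against -0.004 for all genes, with 10 of 10 below 0 and the largest change in Prkcd (-0.94 ± 0.82). From 10 to 15 it was 0.47, against 0.005 for all genes, with 10 of 10 above 0 and Prkcd again the largest (0.92 ± 0.85). From 05 to 15 it was -0.01, against 0.0007 for all genes, with 5 of 10 on each side. Single libraries moved these medians: the first ran from -1.13 without E3-10 3 to -0.10 without E4-05 4, the second from 0.19 without E3-10 2 to 1.07 without E3-10 3, and the third from -0.30 without E3-15 1 to 0.32 without E4-05 4. Each pair of these comparisons shares the libraries of 1 time code, and in each comparison 0% of genes passed in edgeR (606, 776 and 721 with an unadjusted p under 0.05). The interaction of E code and time code also called 0% of genes in edgeR (481 with an unadjusted p under 0.05). Gbx2 was the 1 member among the latter, with an unadjusted p of 0.0162 and an edgeR adjusted p of 0.999.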

How the data were processed

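Raw counts per gene were deposited by the authors in 1 table of 40836 genes and 24 columns. Per the submitters' processing notes, HISAT2 2.1.0, featureCounts 2.0.6 and the mm39 build were used; annotation and strand setting are not given in the sources used here, so reads of genes that overlap a member, such as long noncoding RNAs within Rora, could not be told apart, and positions in mm39 are not printed. Columns were joined to libraries by the column number in the labels. Among counts of 1 to 19, most were even (62.6% in E4-10 2 to 70.8% in E4-05 4). Read pairs may often have been counted as 2, which was not tested. Counting error would then be larger than the counts imply.

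Genes were kept by filterByExpr over the 6 groups and scaled by TMM over the 24 libraries (edgeR 4.0.16, R 4.3.3). The group fit used the 16 libraries with 1 coefficient per group (10 residual degrees of freedom), the slope fit the log2 CPM of Tcf7l2 (prior count 2). Both used quasi-likelihood F tests, Benjamini-Hochberg adjustment over all genes tested and a threshold of 0.05. Correlations used NumPy 2.4.6 and SciPy 1.17.1, with the edgeR slope test giving the adjusted p of each relation. Fits were tested on simulated data, in which genes were drawn independently and the dispersion of each gene was capped. The simulation therefore does not show how the fits behave for members that covary and spread this widely. Alternatives were other scalings and filters, DESeq2 1.42.0, limma-voom (limma 3.58.1), a replicate block, all 24 libraries, and leaving out libraries. Some were added after seeing the data: leaving out 2 libraries by Tcf7l2, and terms or means for sets of 3 adjacent columns. The members, gene lists and tests were chosen with earlier results of these data known. Named genes are the members, the 10 most like their mean, and up to 4 per list with the smallest p on the slope (the single smallest where none passed); Foxp2, Axin2, Slc1a3, Ctnnb1 and Rnf43 were named after their values were seen. Some genes that the rule names are not reported here.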

Additional observations from a re-analysis of the deposited data

Results flagged for a closer look

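In the 60 sets of 4 libraries formed by 10 members and 6 labelled groups, all 24 libraries included, 2 held a library far from the other 3. Chance alone marks about 1 set in 20. Tcf7l2 in E4-15 2 stood at 6.08 log2 CPM, above the 5.46 to 5.57 of the other E4-15 libraries. Synpo2 in E4-10 3 stood at 4.02 log2 CPM, below the 4.23 to 4.24 of the other E4-10 libraries. No interaction of a member with E code and time code passed its test.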

How the results depend on the processing

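Between groups, 0 members were called under any alternative tried. Genes called, 0 in the fits reported, were with DESeq2 15, 7 and 1 for E4 minus E3 at 10, at 15 and averaged, 4, 2 and 21 for time codes 10 minus 05, 15 minus 10 and 15 minus 05, and 12 for the interaction. With all 24 libraries and a term for columns that are multiples of 3 they were 2 at time code 10, 1 for 15 minus 10, 11 for 15 minus 05 and 1 for the interaction. Without a filter they were 5 at time code 15, 2 for 15 minus 05 and 1 for the interaction. Leaving out 1 library at a time gave 0 to 1 genes at time code 15 and 0 to 6 for 15 minus 05. Over the same omissions the median of the members at time code 10 ran from -2.14 to -0.29, Prkcd from -3.11 to 0.021 and Rora from -1.39 to 0.16. The median at time code 05 ran from -0.02 to 1.38. Genes called on the slope (3168) were 1273 with 1 coefficient per group, 1061 without the 2 libraries farthest from the median of Tcf7l2, 541 without the 2 highest, and 1561 to 3471 when each library was left out. The count of members whose ranges lie wholly below in the 8 columns went from 1 to 0 with upper-quartile factors. The cause of these changes was not tested.

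The replicate numbers showed no clear pairing of the libraries. After removing group means, libraries with the same number correlated at a median of -0.03 over 24 pairs and those with other numbers at 0.02 over 82. Of the 16 libraries, 3 correlated best with their own number. Within a time code, the 4 pairs of E3 and E4 libraries with the same number had a median of 0.125 (-0.19 to 0.21). These 4 pairs are too few to decide on pairing between the E codes. With the replicate block the slope called 4227 genes and 9 of 9 members, the median of the members at time code 10 was -1.63, and 0 members were called between groups. Where leaving out a library leaves 1 in E3-10 or E4-15, that library is assumed to vary like the others. With 2 or 3 libraries per group and SEs near 1 log2 unit for Tcf7l2 and Prkcd, changes of 2-fold in these genes were within the error.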
